A study of Mus musculus with 14 samples.

Results

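The 10 genes described here are listed heat shock proteins and co-chaperones of the cytosol and the mitochondrion, found by gene symbol among the 55357 genes of each count table. They are Hspa1a, Hspa1b and Hspa8 (the HSP70 chaperones), Hsph1, Dnajb1 and Bag3 (partners of HSP70), Hspb1 (a small heat shock protein), Hsp90aa1 (a form of HSP90), and Hspd1 and Hspe1 (the mitochondrial chaperonin and its lid). Each symbol had 1 row, and all 10 were among the 12915 genes that passed the filter on low counts. At least Hspa1a passed it only through the model libraries, as the control libraries held 13 counts of it in all. Its direction was therefore hardly open. Hspa1b needed some of the model libraries to pass as well. Control 2 and control 5 held 6 and 8 counts of it, under the filter's level. The list was not chosen by measured values in its rule, but it was proposed with earlier results of these data known.

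The libraries came from livers of C57BL/6 male mice that were 5 to 6 weeks old and weighed 21.5 to 25 g before the experiment. The model group (n = 8) received LPS (lipopolysaccharide from the outer membrane of bacteria) at a dose of 10 µg/kg and D-galactosamine (D-GalN, a sugar toxic to hepatocytes) at 300 mg/kg into the peritoneum. The control group (n = 6) received saline, and the labels give 24 h for both groups. LPS with D-GalN is a chemical and bacterial model of acute liver failure, and no genetic change is named for either group. Whole liver was extracted, so each value is a sum over all cell types. Total counts in genes were 10329469 to 16639972 per model library and 7914120 to 14463540 per control library. Levels are CPM, counts scaled to library size with TMM factors. A call needed an adjusted p below 0.05 in edgeR's quasi-likelihood test with Benjamini-Hochberg adjustment over all 12915 genes tested.

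Heat shock proteins bind unfolded proteins and help them to fold, keep them soluble or pass them on for degradation. HSP70 works in an ATP-driven cycle in which J-domain proteins load the substrate and nucleotide exchange factors release it, and HSP90 takes over later steps for many kinases and receptors. The chaperonin of the mitochondrial matrix closes a folding chamber with a lid. The inducible genes are classic targets of the transcription factor HSF1, which binds alternating GAA and TTC units of DNA called heat shock elements.

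The upstream sequences are shown because HSF1 reads such units, and whether they bear on the changes in these livers was not tested. RefSeq promoter entries (build GRCm38.p6) were matched by symbol for 8 of the 10 genes, all but Hspa8 and Hsp90aa1. The 250 bases before each start were searched for GAANNTTC and TTCNNGAA, which read the same on both strands and may share a unit. Some genes have more than 1 entry. At least 1 of the pairs was present in 7 of the 11 entries of the 8 genes (in any entry of 6 genes). Of 32851 promoter entries, 12.84% held a pair (6.69% GAANNTTC and 7.17% TTCNNGAA), a share per entry and not per gene. The 7 entries are not independent: both entries of Hsph1 held the same TTCTCGAA, and Hspd1 and Hspe1 shared 1 element. Hspa1a and Hspa1b are nearly identical there. The genes were listed as heat shock genes, so the difference from all entries says nothing about these livers. Longer runs of 3 units, GAANNTTCNNGAA or TTCNNGAANNTTC, were present for Hspd1 and Hspe1 only among the 8, and in 0.47% of all entries. The windows of Dnajb1 and Bag3 held none of these motifs, and in a window of Dnajb1 245 of the 250 bases lay in annotated exons. Only exact matches were searched for, so an element with a mismatch or farther from the start would be missed. Such a match describes the sequence and does not show that a factor was bound. In the sequences that follow, written 5′ to 3′ on the strand of the gene, capitals mark the pair motifs.
Hspa1a, chr17:34972157-34972406, minus strand: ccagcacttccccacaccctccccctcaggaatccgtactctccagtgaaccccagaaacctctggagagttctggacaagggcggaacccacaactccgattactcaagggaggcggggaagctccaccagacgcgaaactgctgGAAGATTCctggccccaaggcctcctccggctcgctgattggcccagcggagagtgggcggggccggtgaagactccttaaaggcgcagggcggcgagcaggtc
Hspa1b, chr17:34959239-34959488, minus strand: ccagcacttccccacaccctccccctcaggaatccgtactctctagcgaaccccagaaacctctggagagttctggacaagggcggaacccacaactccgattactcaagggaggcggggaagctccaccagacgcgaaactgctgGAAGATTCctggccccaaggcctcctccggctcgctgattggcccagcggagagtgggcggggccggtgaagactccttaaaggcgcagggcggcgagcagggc
Hspb1, chr5:135887669-135887918, plus strand: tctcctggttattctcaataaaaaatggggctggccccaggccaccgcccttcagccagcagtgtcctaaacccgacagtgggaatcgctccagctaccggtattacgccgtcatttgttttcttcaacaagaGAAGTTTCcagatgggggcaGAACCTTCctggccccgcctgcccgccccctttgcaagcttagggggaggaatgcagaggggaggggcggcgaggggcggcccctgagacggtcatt
Hsph1, chr5:149636351-149636380, minus strand: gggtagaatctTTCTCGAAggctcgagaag
Hspd1 and Hspe1, chr1:55088053-55088082, strand of Hspe1: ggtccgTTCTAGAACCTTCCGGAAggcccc
The upstream stretches of Hspa1a and Hspa1b were 98.8% identical, with 3 differing bases of 250, and both held GAAGATTC from 104 to 97 bases before the start. Hspb1 held GAAGTTTC from 117 to 110 bases and GAACCTTC from 97 to 90 bases before its start. For Hsph1 and for the chaperonin genes the upstream stretches overlap annotated exons, and 30 bases around the element are shown. Hspd1 and Hspe1 lie head to head, and 1 element of 18 bases with 4 alternating units lay between the start of Hspe1 and a start of Hspd1. It ended 72 bases before that start of Hspe1 and 127 bases before that start of Hspd1. For the other entry of Hspd1 the element lay downstream of the start, and the upstream window held no motif.

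Of the 10 genes, 8 were higher in model livers, 1 was lower (Hspe1) and 1 did not pass the test (Hspd1). Over all genes tested, 26.6% were called higher and 21.3% were called lower (3437 and 2751 genes, or 2533 and 3955 when library totals replaced the TMM factors). The counts of the 10 genes, 8 and 1, held under each of the 4 other scalings tried. At least 2-fold, 6 of the 10 were higher, against 20.3% of all genes. The median log2 fold change of the 10 was 1.47, and that of all genes was 0.0099. Model and control libraries were fully separated in CPM for 6 of the 10 genes, each higher in model, against 23.2% of all genes in either direction and 14.6% higher in model. Hspa1a and Hspa1b are in each of these counts of higher genes. Hspa1a passed the filter only through the model libraries, and Hspa1b needed some of them to pass. All 12 neutrophil markers and 8 of 9 monocyte and macrophage markers were higher in the same livers, and their part in these counts was not tested. Several of these markers passed the filter only through the model libraries, so their direction was hardly open. Ribosomal RNA genes, those of the mitochondrion included, held 0.816% to 5.79% of counts in model and 0.12% to 1.98% in control, and genes of the mitochondrial genome held 6.46% to 20.8% and 6.18% to 8.57%. Model 3 (5.79% and 20.8%) and model 4 (4.10% and 14.4%) were highest in both, and without these 2 libraries 8 of the 10 genes were higher and 1 lower. In whole liver, fewer cells of a type and less RNA per cell cannot be told apart.

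**Figure D1:**
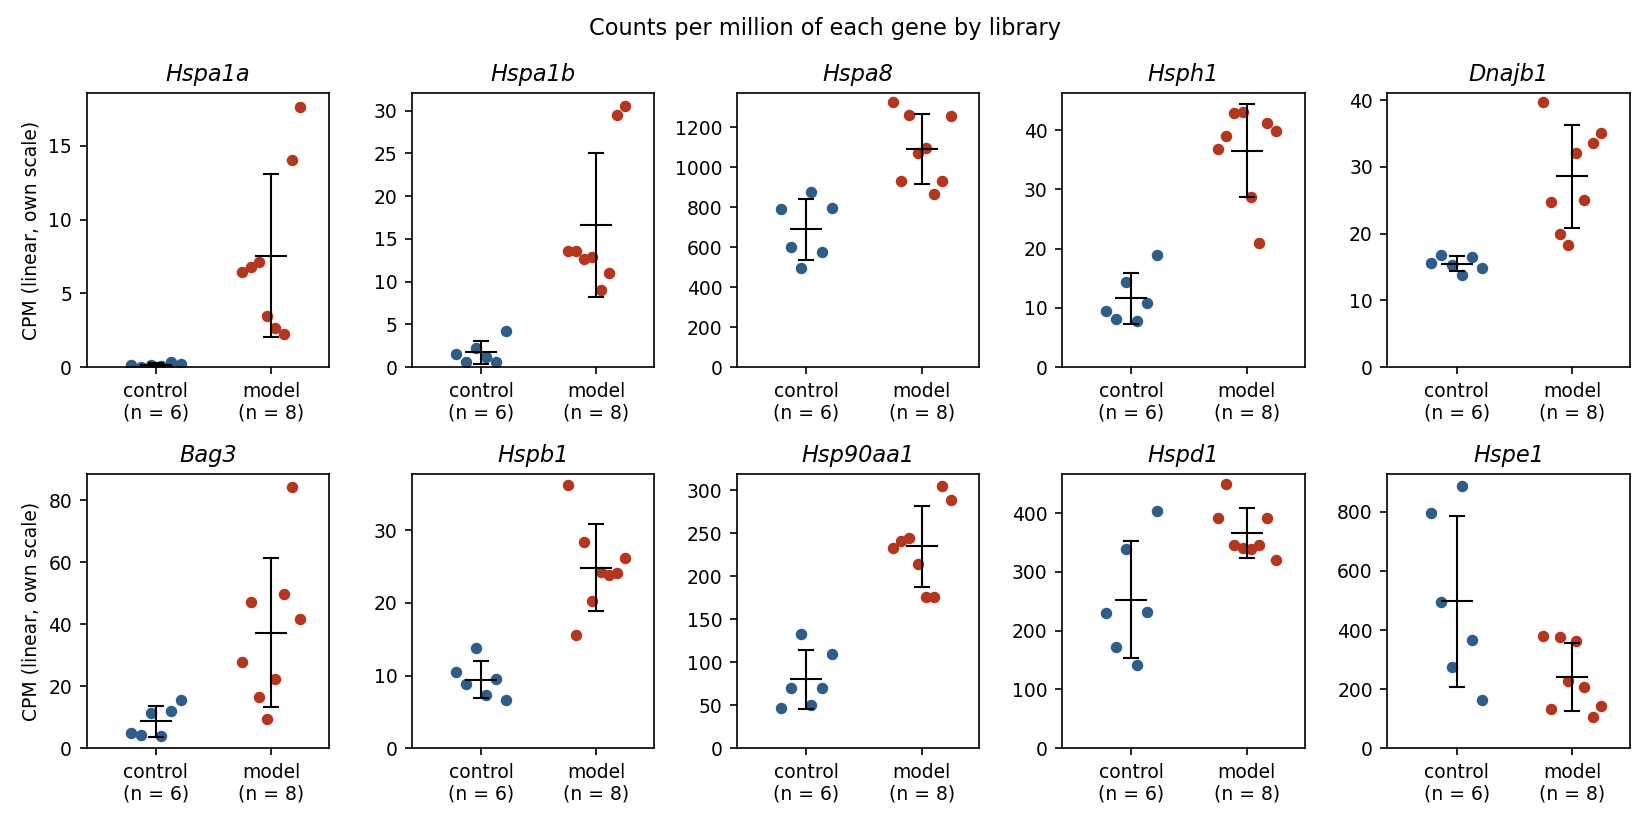
Level (CPM, linear axis from 0, own scale in each panel) of the 10 genes in each library, with blue points for 6 control and red points for 8 model libraries, and black bars for the mean ± SD. The groups do not overlap for Hspa1a, Hspa1b, Hsph1, Dnajb1, Hspb1 and Hsp90aa1, and Hspe1 alone has its lower mean in model.

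Of the HSP70 chaperones, the inducible genes Hspa1a and Hspa1b were the most changed of the 10, while the constitutive Hspa8 rose little. Hspa1a (ENSMUSG00000091971.4) ranged from 2.27 to 17.7 CPM in model with a median of 6.62, and from 0 to 0.330 CPM in control with a median of 0.153. The control values rest on 13 counts in all 6 libraries together, and control 2 held none, while the model libraries held 818. The lowest model library was above the highest control library. Hspa1a averaged 7.56 ± 5.55 CPM in model (SD, n = 8) and 0.159 ± 0.112 CPM in control (SD, n = 6), a fitted log2 fold change of 5.40 (SE 0.62, adjusted p = 1.43e-06 by edgeR).

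Hspa1b (ENSMUSG00000090877.4), which encodes almost the same protein, ranged from 9.00 to 30.5 CPM in model with a median of 13.2, and from 0.636 to 4.27 CPM in control with a median of 1.35. All 8 model libraries lay above the controls. Its log2 fold change was 3.20 (SE 0.45, adjusted p = 1.34e-05 by edgeR), between means of 16.6 ± 8.42 and 1.74 ± 1.37 CPM.

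For both inducible genes, model 7 and model 8 stood above the other model libraries. Hspa1a was at 14.1 and 17.7 CPM there and at 2.27 to 7.14 CPM in the other 6. Hspa1b was at 29.5 and 30.5 CPM there and at 9.00 to 13.6 CPM in the others. Without these 2 libraries the log2 fold changes were 4.77 for Hspa1a (adjusted p = 1.14e-06 by edgeR) and 2.78 for Hspa1b (adjusted p = 4.02e-05 by edgeR).

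Hspa8 (ENSMUSG00000015656.18), the constitutive HSP70 that also uncoats clathrin vesicles, was the most abundant of the 10 in model livers. It ranged from 864 to 1326 CPM in model with a median of 1082, and from 496 to 877 CPM in control with a median of 695. Model 6 lay just under control 4, the highest control, and the other 7 model libraries lay above every control. The log2 fold change was 0.66 (SE 0.19, adjusted p = 0.00687 by edgeR), between means of 1091 ± 175 and 689 ± 152 CPM.

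The partners of HSP70 rose as well, with the largest fold in Bag3 and the smallest in Dnajb1. Hsph1 (ENSMUSG00000029657.16), the HSP110 protein that acts as a nucleotide exchange factor, ranged from 21.0 to 43.0 CPM in model with a median of 39.5, and from 7.72 to 19.0 CPM in control with a median of 10.2. Its ranges did not overlap, although model 6 and control 6 lay close to each other. The log2 fold change of Hsph1 was 1.65 (SE 0.24, adjusted p = 2.22e-05 by edgeR).

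Dnajb1 (ENSMUSG00000005483.11), the J-domain protein that loads substrates on cytosolic HSP70, ranged from 18.3 to 39.7 CPM in model with a median of 28.6. In control it ranged only from 13.8 to 16.8 CPM with a median of 15.5, the smallest spread among the 10 genes relative to the mean (7.14%, against 26.8% in model). All 8 model libraries were higher than every control. The log2 fold change of Dnajb1 was 0.88 (SE 0.20, adjusted p = 0.00123 by edgeR).

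Bag3 (ENSMUSG00000030847.9), an exchange factor that links HSP70 to small heat shock proteins and to autophagy, ranged from 9.36 to 84.2 CPM in model with a median of 34.7, and from 3.86 to 15.5 CPM in control with a median of 8.10. The groups overlapped through model 4 alone, which lay below the highest 3 controls, and 7 of 8 model libraries lay above every control. The log2 fold change was 2.10 (SE 0.46, adjusted p = 0.00112 by edgeR), between means of 37.3 ± 23.9 and 8.61 ± 4.88 CPM.

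Hspb1 and Hsp90aa1 each rose without overlap between the groups. Hspb1 (ENSMUSG00000004951.11), a small heat shock protein that holds unfolded proteins without using ATP, ranged from 15.6 to 36.2 CPM in model with a median of 24.2, and from 6.62 to 13.8 CPM in control with a median of 9.14. Its log2 fold change was 1.40 (SE 0.22, adjusted p = 5.09e-05 by edgeR). Model 1 was its highest library and model 2 its lowest.

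Hsp90aa1 (ENSMUSG00000021270.14), the stress-inducible cytosolic HSP90, ranged from 176 to 306 CPM in model with a median of 237, and from 46.8 to 133 CPM in control with a median of 70.4. Every model library was above every control, and model 7 and model 8 were again the highest. The log2 fold change of Hsp90aa1 was 1.55 (SE 0.25, adjusted p = 6.58e-05 by edgeR), and it was 1.45 without model 7 and model 8 (adjusted p = 0.000322).

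The 2 genes of the mitochondrial chaperonin were not called in the same direction. Hspd1 (ENSMUSG00000025980.15), the HSP60 subunit that forms the folding chamber, ranged from 321 to 450 CPM in model with a median of 346, and from 141 to 404 CPM in control with a median of 231. Control 6 lay above all model libraries but model 2. Its log2 fold change was 0.53 (SE 0.22) and missed the threshold (adjusted p = 0.0555 by edgeR), with an adjusted p under it without control 3 (0.0356) or control 6 (0.00702) and with limma-voom (0.0231).

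Hspe1 (ENSMUSG00000073676.5), the HSP10 lid of the chamber, ranged from 104 to 379 CPM in model with a median of 218, and from 162 to 887 CPM in control with a median of 430. Model 2, model 7 and model 8 lay below every control, and the other 5 model libraries lay inside the control range. The log2 fold change was -1.04 (SE 0.38, adjusted p = 0.0314 by edgeR), between means of 242 ± 116 and 497 ± 290 CPM. The call was lost without model 6 (adjusted p = 0.0547), model 7 (0.0522), model 8 (0.0559), control 1 (0.0878) or control 4 (0.104), and without model 7 and model 8 together the log2 fold change was -0.77 (0.0996).

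**Figure D2:**
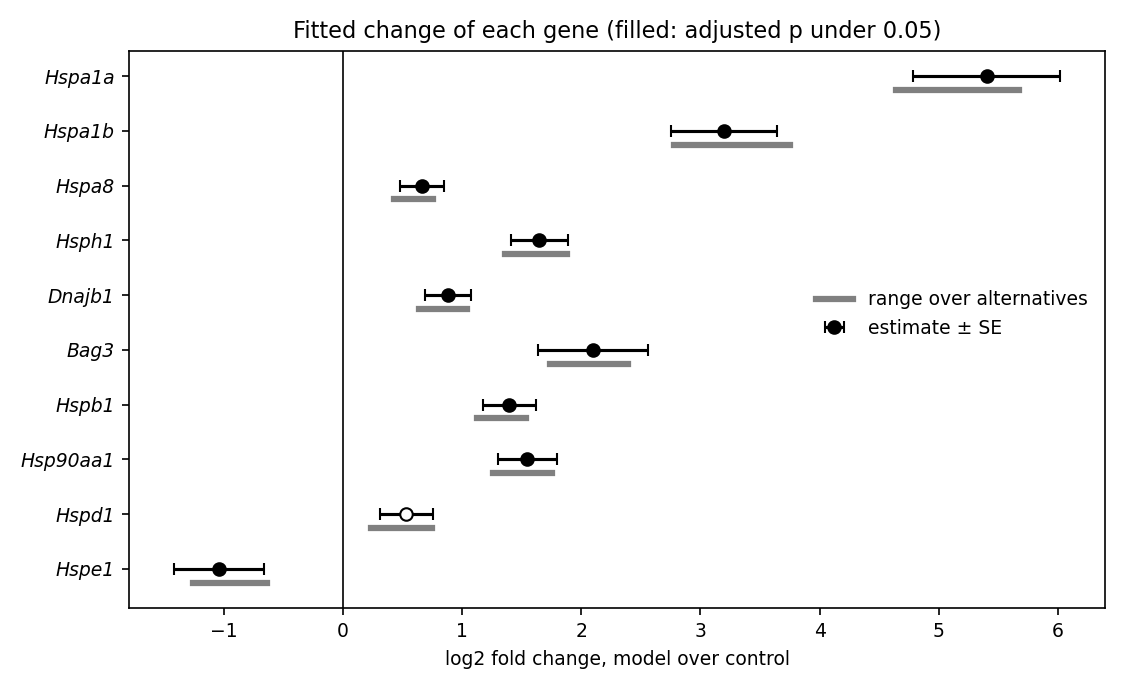
Log2 fold change, model over control, of the 10 genes (circles, filled where the adjusted p is under 0.05) with bars of 1 SE, and in grey the range over the alternative settings. Hspa1a is highest at 5.40, and Hspe1 is the only gene on the lower side, at -1.04.

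Ratios of related genes within a library need no scaling between libraries. For each library, 4 log2 count ratios were taken after 2 was added to each count, and the groups were compared with exact two-sided permutation tests (3003 arrangements of the group labels), adjusted over the 4. The smallest p such a test can give is 0.000333. Hspa1a relative to Hspa8 was -7.45 ± 0.99 in model and -11.03 ± 0.52 in control, a difference of 3.58 (exact permutation p = 0.000333, adjusted 0.00133), so the share of the inducible form was higher. The control ratios rest on 0 to 4 counts of Hspa1a in a library, so the number added largely sets their level and spread. With 0.5 in place of 2 added the difference was 4.435, so its size depends on that setting. Hsp90aa1 relative to Hsp90ab1, the constitutive cytosolic HSP90, was -1.96 ± 0.46 in model and -2.83 ± 0.46 in control, a difference of 0.87 (exact permutation p = 0.000999, adjusted 0.002). This ratio was -1.28 and -1.20 in model 7 and model 8, and it was -2.45 to -2.07 in the other model libraries. Its values are set beside the balance between short and long genes further below.

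Hspa1b relative to Hspa1a was 1.30 ± 0.54 in model and 2.31 ± 1.00 in control, a difference of -1.01 (exact permutation p = 0.0306, adjusted 0.0306). It was -1.72 (adjusted 0.00799 by exact permutation) with 0.5 in place of 2 added to each count, so its size depends on that setting. The control ratios rest on 0 to 4 counts of Hspa1a in a library, and 9 of the 14 fits that leave out 1 library missed the threshold. Hspe1 relative to Hspd1 was -0.75 ± 0.80 in model and 0.83 ± 1.46 in control, a difference of -1.58 (exact permutation p = 0.0240, adjusted 0.0306). It missed the threshold without model 2, model 7, model 8, control 1 or control 4, with adjusted p from 0.0513 to 0.0591.

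**Figure D3:**
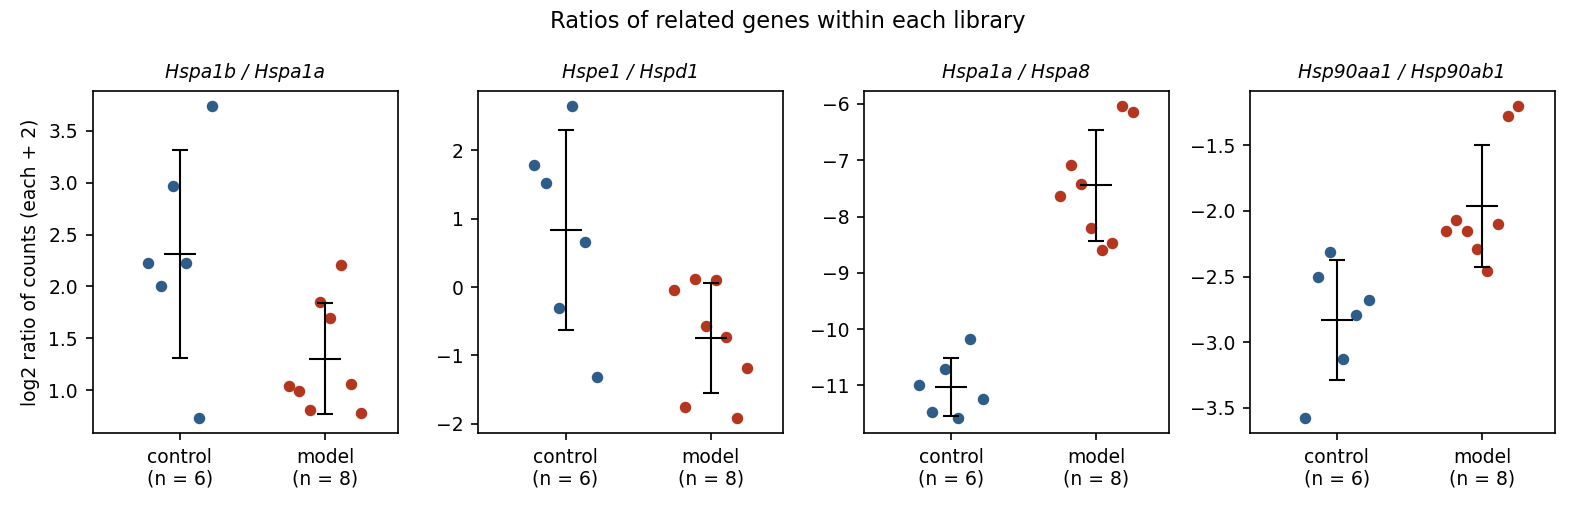
Log2 ratio of counts (2 added to each count) of 4 pairs of related genes in each library, with blue points for 6 control and red points for 8 model libraries, and bars for the mean ± SD. Hspa1a over Hspa8 separates the groups without overlap, and Hspe1 over Hspd1 spreads from -1.31 to 2.65 within the controls.

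The ratio of Hspe1 to Hspd1 moved with a balance between short and long genes that also differed within groups. Genes were put in 5 equal classes by exonic length, and the median centred log2 CPM of the longest class was subtracted from that of the shortest in each library. Hspe1 (1474 bases) belongs to the shortest class, and Hspd1 (2642 bases) to the next. The libraries had the same rank in this balance and in the ratio for 4 of 8 model and 4 of 6 control libraries, and no rank differed by more than 1. The balance was lowest in model 7 (-1.17) and control 6 (-0.90), whose ratios were lowest in their groups (-1.91 and -1.31). It was highest in control 1 (1.09, ratio 1.79) and model 5 (0.54, ratio 0.10). The median log2 fold change was -0.23 over the shortest class of genes and 0.28 over the longest. With an offset for length and GC content in the fit, Hspe1 was at -0.99 (adjusted p = 0.0014 by edgeR) and Hspd1 at 0.36 (0.253). The ratio of Hsp90aa1 to Hsp90ab1 was lowest in its group in control 1 (-3.57) and model 5 (-2.45), where the balance was highest. It was highest in model 7 and model 8 (-1.28 and -1.20), with balances of -1.17 and -0.74. The orders were not the same throughout: control 6 had a ratio of -2.68, under control 3 (-2.31, balance -0.33), and model 2 (balance -0.84) one of -2.07. What links this balance to either ratio was not tested.

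Levels between genes were compared as CPM per kilobase of exon, with the exons of all transcripts of a gene merged. For Hsph1 this length was 7266 bases, against 4764 bases for its longest transcript. The order of genes close in level, such as Hsph1 and Hspa1b in model, therefore depends on the length used. In control livers the order was Hspe1 (337 ± 197), Hspa8 (160 ± 35.2), Hspd1 (95.8 ± 37.9), Hsp90aa1 (20.4 ± 8.73), Hspb1 (9.15 ± 2.49), Dnajb1 (4.84 ± 0.345), Bag3 (3.36 ± 1.91), Hsph1 (1.60 ± 0.597), Hspa1b (0.622 ± 0.488) and Hspa1a (0.0534 ± 0.0379). The mean ± SD of neighbours overlapped for Hspe1 with Hspa8, Hspa8 with Hspd1, Dnajb1 with Bag3, Bag3 with Hsph1, and Hsph1 with Hspa1b. In model livers Hspa8 came first (254 ± 40.6), followed by Hspe1 (164 ± 78.4), Hspd1 (138 ± 16.0), Hsp90aa1 (59.7 ± 11.9), Hspb1 (24.1 ± 5.83), Bag3 (14.6 ± 9.33), Dnajb1 (8.92 ± 2.39), Hspa1b (5.92 ± 3.00), Hsph1 (5.03 ± 1.07) and Hspa1a (2.55 ± 1.87). There only Hspd1 and Hsp90aa1 stood apart from the next gene in that order by more than their SDs. Hspa1a stayed last despite the largest fold. The summed CPM of the 10 genes was 2085 ± 252 in model (1727 to 2490) and 1566 ± 309 in control (1292 to 1990), and the ranges overlapped. Hspa8 made up 52.2% of the sum in model and 44% in control, while Hspe1 made up 11.4% and 30.4%.

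The model livers did not share 1 order across the genes. Model 7 and model 8 held the 2 highest values of Hspa1a, Hspa1b and Hsp90aa1. Model 1 was highest for Hspa8, Dnajb1, Hspb1 and Hspe1. Model 6 was lowest for Hspa1a, Hspa8, Hsph1 and Hsp90aa1, yet second highest for Bag3. Model 4 was highest for Hsph1 and lowest for Dnajb1 and Bag3. Model 8 was lowest for Hspd1, and model 7 was lowest for Hspe1. Among controls, control 6 was highest for Hspa1b, Hsph1, Bag3 and Hspd1 and lowest for Hspb1 and Hspe1.

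**Figure D4:**
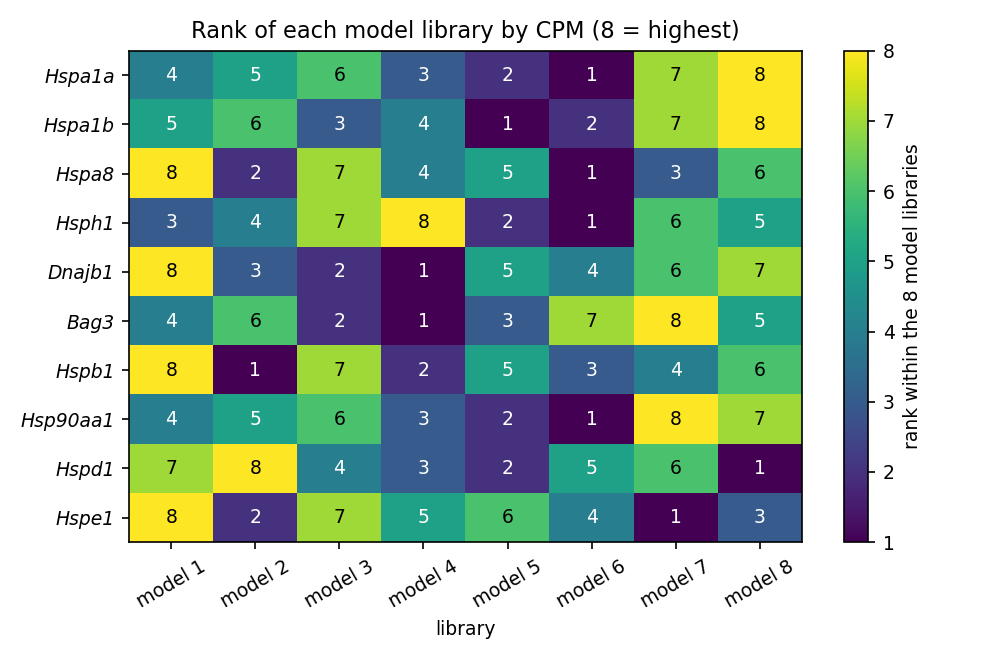
Rank of the 8 model libraries (columns) by CPM within each of the 10 genes (rows), with 8 the highest (yellow) and 1 the lowest (dark). Model 7 and model 8 hold ranks 7 and 8 for Hspa1a, Hspa1b and Hsp90aa1, and model 6 holds rank 1 for 4 genes.

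Several of these genes share sequence with other genes, which limits how reads are assigned. Of the 50-base windows of the longest transcript in the annotation supplied, 66.3% of Hspa1a and 62.3% of Hspa1b also occur in a transcript of another gene, mostly in each other. The shares were 58.5% for Hsp90aa1, 52.7% for Hspa8, 51.6% for Hspb1, 44.8% for Hspd1, 8.20% for Hspe1 and 0.441% for Dnajb1, and Hsph1 and Bag3 had none. With 100-base windows the shares were lower, at 56.5% for Hspa1a, 49.9% for Hspa1b, 47.5% for Hsp90aa1 and 42.7% for Hspb1. They were then 32.1% for Hspa8, 26.9% for Hspd1 and 0.347% for Hspe1, and Dnajb1 had none either. Reads in such windows may be lost as aligned to several places or split, so levels of Hspa1a and Hspa1b and the ratio between them are uncertain. Part of the exons of Hspa1a (19.0%) overlaps Gm20481 on the other strand, and 4.24% of Hspd1 and 7.60% of Hspe1 overlap each other. The strand setting of the counting is not given in the sources used here, so reads there cannot be told apart. The exons of Hspa8 also overlap Snord14c, Snord14d and Snord14e.

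Rows of processed pseudogenes carried small counts beside their parents. Gm15459, which shares 45.3% of the 50-base windows of Hspa8, was at 1.09% to 1.92% of Hspa8 in a library, and rose by 0.75 on the log2 scale (adjusted p = 0.0034 by edgeR). Hspd1-ps3 was at 1.43% to 3.21% of Hspd1, Gm12346 at 0.527% to 1.51% of Hsp90aa1 and Hsp25-ps1 at 0% to 3.61% of Hspb1.

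For each gene, the tested gene with the most similar profile was found by the mean absolute difference of centred log2 CPM over the 14 libraries. The profiles include the group difference. For Hspa8 it was the pseudogene Gm15459 (0.136). For the chaperonin it was Ubqln1 for Hspd1 (0.0895) and Smim26 for Hspe1 (0.0982). It was Ralgds for Hspa1a (0.454), AI506816 for Hspa1b (0.334), Cap1 for Hsph1 (0.165), Surf4 for Dnajb1 (0.155), Nt5dc3 for Bag3 (0.243), Nxpe3 for Hspb1 (0.233) and Lyn for Hsp90aa1 (0.197). These distances were largest for Hspa1a and Hspa1b, and none of the 10 genes had another of the 10 as its nearest.

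Other chaperone genes were set beside the 10 through 9 lists with 114 genes in all, of which 101 were tested. Some genes stand in more than 1 list. Of the 101, 25 were higher and 18 were lower, beside 26.6% and 21.3% of all genes tested, and each list below is to be read beside these shares. The median log2 fold change of the 101 was -0.0089, against 0.0099 for all genes. With library totals 9 were higher and 35 lower, beside 2533 and 3955 of all genes tested. The median of all genes was then -0.23, so counts with that scaling are given beside those of each list. Of 6 other HSP70 and HSP110 genes tested, 3 were higher and 0 lower (median 0.70; 2 and 0 with library totals). They were Hspa2 (log2 fold change 1.90), Hspa13 (1.19) and Hspa9, the mitochondrial HSP70, which was at 489 ± 67.4 CPM in model and 268 ± 92.0 CPM in control (0.87, SE 0.21, adjusted p = 0.00244 by edgeR). Hspa4l, an HSP110 protein, was at 12.2 CPM in model and 12.4 CPM in control, without a call (adjusted p = 0.922).

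Of 10 other regulators of HSP70 in a list that leaves out Hsph1, Dnajb1 and Bag3, 0 were higher and 3 were lower (median -0.31; 0 and 6 with library totals). Bag4, another BAG-domain co-chaperone, was at 6.08 ± 1.55 CPM in model and 24.7 ± 3.04 CPM in control (log2 fold change -2.02, SE 0.19, adjusted p = 1.59e-07 by edgeR), opposite in sign to Bag3. Grpel2, an exchange factor of mitochondrial HSP70, was at -1.70 (SE 0.40) on the log2 scale, and at -2.37 without model 7 and model 8, which were at 27.6 and 41.3 CPM against 5.89 to 17.2 CPM in the other model libraries. Of 30 other J-domain genes, 7 were higher and 6 were lower (median -0.12; 2 and 12 with library totals). Dnajb5 rose by 2.08 and Dnajc28 fell by 2.40, while Dnaja1, an abundant cytosolic partner of HSP70, was at 145 ± 16.4 and 155 ± 12.0 CPM without a call (adjusted p = 0.621), but it was called lower with the length and GC offset (log2 fold change -0.37, adjusted p = 0.0425 by edgeR).

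Of 18 genes of the HSP90 system, 6 were higher and 2 were lower (median 0.17; with library totals 2 and 4, median -0.07). Hsp90ab1 was at 914 ± 166 CPM in model and 543 ± 121 CPM in control (log2 fold change 0.75, SE 0.19, adjusted p = 0.00375 by edgeR). Fkbp5, an HSP90 co-chaperone of steroid receptors, rose by 1.77, and Ttc4 fell by 1.41. Of 3 other small heat shock genes tested, 1 was higher and 0 lower (median 0.45; 0 and 1 with library totals). It was Hspb8, the small heat shock protein that pairs with BAG3, whose log2 fold change was 1.72 (SE 0.62, adjusted p = 0.0296 by edgeR). Model 3 and model 4 were at 51.3 and 20.1 CPM of Hspb8, below the controls' 117 to 221 CPM, and the other 6 model libraries were at 310 to 1066 CPM, above them. The call of Hspb8 was lost in 12 of 24 alternatives, among them the fit without model 7 and model 8 (log2 fold change 1.13, adjusted p = 0.135 by edgeR). Cryab, also a small heat shock gene, was at 5.53 and 4.07 CPM without a call (adjusted p = 0.0979), but it was called higher without control 1 (log2 fold change 0.57, adjusted p = 0.0486 by edgeR).

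Of 14 genes of the cytosolic chaperonin TRiC and prefoldin, 2 were higher and 3 were lower (median -0.06; 0 and 6 with library totals), with Cct2 at 0.67 and Pfdn6 at -1.05. Of 19 other mitochondrial chaperones and proteases, 4 were higher and 3 were lower (median -0.20; 0 and 7 with library totals). Hspa9 and Grpel2, given already, were the extremes. Thus Hspa9 was called higher in the same livers in which Hspd1 missed the threshold and Hspe1 was called lower. With library totals the calls of Hspa9 (adjusted p = 0.0603 by edgeR), Hsp90ab1 (0.0615) and Cct2 (0.0677) were lost.

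No heat shock factor gene was called higher. Of 5 genes of heat shock factors and their binding proteins, 0 were higher and 3 were lower (median -0.98; 0 and 4 with library totals). Hsf1 was at 8.01 ± 1.87 CPM in model and 6.83 ± 1.78 CPM in control, without a call (adjusted p = 0.414), and its sign turned with library totals or the length and GC offset. Hsf2 was lower in model, at 4.17 ± 1.27 against 15.2 ± 2.85 CPM in control (log2 fold change -1.85, SE 0.24, adjusted p = 4.65e-06 by edgeR). Hsbp1l1 fell by 1.89. Of 18 other genes linked to HSF1, 8 were higher and 0 lower (median 0.49; 4 and 2 with library totals). Ier5, an activator of HSF1, rose from 3.10 ± 0.966 to 46.3 ± 18.6 CPM (3.91, SE 0.30, adjusted p = 1.08e-08 by edgeR), and Serpinh1, the collagen chaperone HSP47, rose from 12.7 ± 2.32 to 54.0 ± 12.0 CPM (2.09, SE 0.20).

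**Figure D5:**
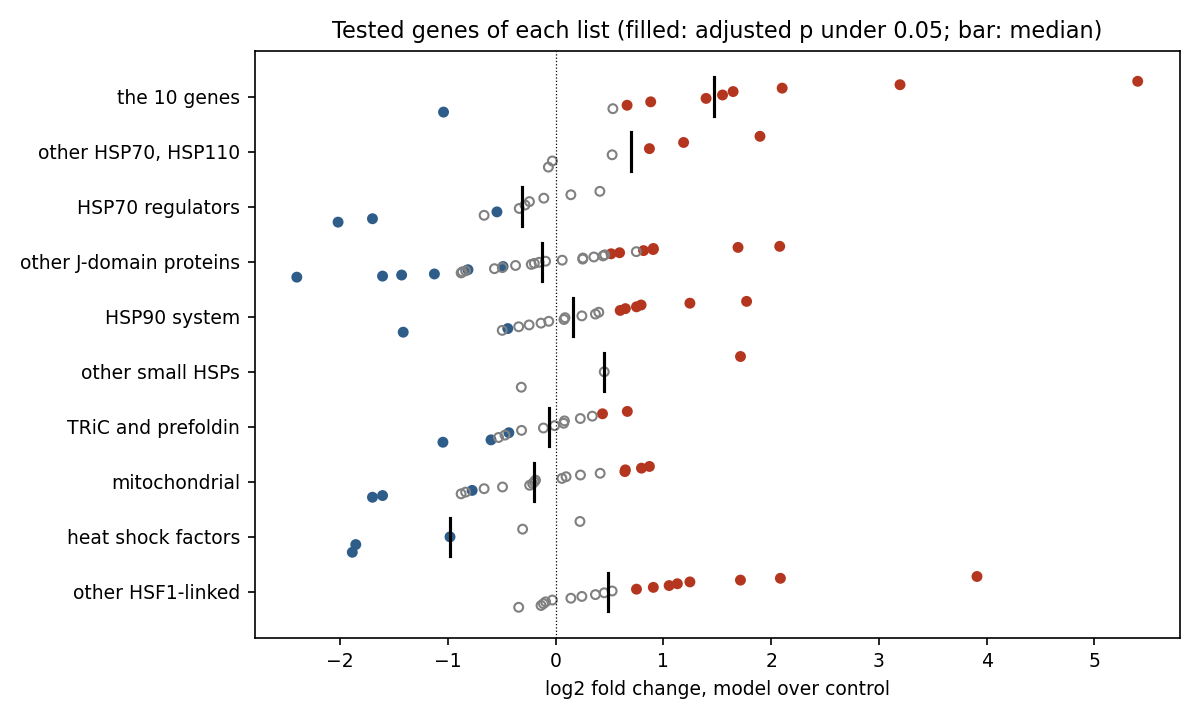
Log2 fold change, model over control, of each tested gene (points, red called higher, blue called lower, open not called) in the 10 genes and 9 lists of other chaperone genes, with a black bar at each median. The 10 genes have a median of 1.47, and the medians of the lists run from -0.98 for heat shock factors to 0.70 for other HSP70 and HSP110 genes.

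Markers of several cell types differed between the groups, beside 26.6% of all genes tested called higher and 21.3% called lower. Hepatocyte markers were abundant in every library, with a summed level of 85640 to 99480 CPM in model and 54540 to 80000 CPM in control, and 4 of 10 were higher and 0 lower (median 0.70). All 12 neutrophil markers were higher (median 7.79), with sums of 1336 to 3003 CPM in model and 4.21 to 16.9 CPM in control, where Ly6g was at 0. At least Ly6g, Mmp8, Ltf, Camp, Ngp, Il1r2 and Cxcr2 passed the filter only through the model libraries. The controls together held 0 to 10 counts of each, so their direction was hardly open. The same holds for the macrophage markers Itgam and Chil3, with 22 and 28 counts in control. Monocyte and macrophage markers were higher for 8 of 9 (median 2.44), with sums of 420 to 649 and 158 to 345 CPM. Higher and lower counts were 2 and 2 of 7 for Kupffer cells (median -0.10, sums 229 to 506 and 231 to 374 CPM), 4 and 0 of 5 for T and NK cells (1.20; 4.65 to 12.1 and 2.02 to 5.60 CPM) and 1 and 0 of 4 for B cells (0.23, or -0.03 with library totals; 10.6 to 36.2 and 7.76 to 15.7 CPM). They were 3 and 2 of 7 for sinusoidal endothelium (0.13, or -0.15 with library totals; 181 to 355 and 108 to 171 CPM), 5 and 1 of 7 for stellate cells (1.26; 325 to 639 and 142 to 198 CPM), 5 and 0 of 5 for cholangiocytes (2.62; 26.1 to 67.2 and 2.97 to 4.21 CPM) and 5 and 0 of 5 for erythroid cells (3.77; 1210 to 25560 and 422 to 1611 CPM). With library totals, 2 of 10 hepatocyte, 2 of 5 T and NK and 3 of 7 stellate markers were higher (medians 0.41, 0.89 and 0.97). Of the 8 T and NK markers listed, 5 were tested. The part of these cells in the changes of the 10 genes was not tested.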

How the data were processed

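Polyadenylated RNA of 8 model and 6 control liver samples was sequenced, per the labels' protocols. The authors deposited raw read counts per gene, 1 table per sample. Reads were aligned with HISAT2 to GRCm39, per the submitters' processing notes. Which program, strand setting and annotation release were used for counting is not given in the sources used here. Summary lines that name no gene held 27.4% to 45.6% of the entries of a library (reads aligned to several places 13.4% to 18.6%) and were left out.

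Genes were kept with filterByExpr and tested with edgeR 4.0.16 in R 4.3.3, with TMM factors, a robust quasi-likelihood fit on group alone and Benjamini-Hochberg adjustment over 12915 genes. SE, the standard error, was taken from the log2 fold change and the square root of F. Group ratios were compared by exact permutation. The labels name separate samples but not separate animals, so p-values measure the spread between samples. Library pairs of a group differed by more than sampling noise (smallest chi-square per degree of freedom 23.3 over 43 pairs). Exonic lengths, GC content, overlaps and windows came from GENCODE annotation for GRCm38, matched by identifier for 99.9% of tested genes, and upstream sequences from RefSeq (GRCm38.p6).

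The 10 genes, the 9 lists of chaperone genes, the 10 lists of cell markers and the tests were chosen with earlier results of these data known. Named genes are the 10, the most changed called gene of each list in each direction, 8 genes by name and the nearest profile of each of the 10. Hspa13 and the pseudogene rows were named after their values were seen. Alternatives changed the scaling, filter, test (DESeq2 1.42.0, limma-voom 3.58.1), length and GC offset, replicate block, libraries and, for the ratios, the number added to each count. Model 3 and model 4 were left out together for their ribosomal RNA, and model 7 and model 8 were left out together as well.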

Additional observations from a re-analysis of the deposited data

How the results depend on the processing

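The 8 genes called higher kept direction and call in each of 24 alternatives. Their lowest log2 fold changes were 0.43 (Hspa8), 0.64 (Dnajb1), 1.13 (Hspb1), 1.26 (Hsp90aa1), 1.36 (Hsph1), 1.74 (Bag3), 2.78 (Hspa1b) and 4.64 (Hspa1a). Hspd1 ran from 0.23 to 0.75, and Hspe1 from -1.26 to -0.63. The count of the 10 genes called lower was 0 without model 7 and model 8, and 0 to 1 when each library was left out in turn. With library totals, 9 of the other chaperone genes were higher and 35 lower, beside 2533 and 3955 of all genes tested. With the length and GC offset, 36 were lower, and 4197 of all genes were lower against 2751 with the settings used in the text. The median of all genes moved to -0.23 with library totals, -0.14 with upper-quartile factors, -0.18 with the offset and 0.29 without a low-count filter. Hsf1 turned to -0.0222 with library totals and -0.12 with the offset. Hspa4l turned to 0.035 without model 7 and model 8, and it ran from -0.174 to 0.142 when 1 library was left out. The cause of these moves was not tested.

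The log2 ratio of Hspa1b to Hspa1a differed by -1.02 without model 3 and model 4 (adjusted p = 0.0584 by exact permutation), -0.88 without model 7 and model 8 (0.0823), and -1.32 to -0.72 when 1 library was left out. That of Hspe1 to Hspd1 differed by -1.32 without model 7 and model 8 (0.0823), and by -2.01 to -1.22 when 1 library was left out. With 0.5 in place of 2 added to each count, the difference was -1.72 for Hspa1b to Hspa1a, 4.43 for Hspa1a to Hspa8, -1.58 for Hspe1 to Hspd1 and 0.87 for Hsp90aa1 to Hsp90ab1, and all 4 stayed past the threshold.

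Replicate numbers 1 to 6 occur in both groups, but they do not pair the samples: deviations of same-numbered libraries correlated from -0.34 to 0.36, and none correlated best with its own number. With the replicate number as a block in edgeR, 2949 genes were higher and 2207 lower, 8 of the 10 genes were higher and 0 lower, with Hspe1 at -0.63 (adjusted p = 0.186) and Hspa4l at 0.056. In exact sign-flip tests over the 6 pairs, the block gave ratio differences of -0.88 for Hspa1b to Hspa1a (adjusted p = 0.125), -1.32 for Hspe1 to Hspd1 (0.188), 3.13 for Hspa1a to Hspa8 (0.0625) and 0.63 for Hsp90aa1 to Hsp90ab1 (0.0625). A design of 6 pairs with 4 tests limits how small these can be. Low counts limit Hspa1a in control most.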
